A study of Mus musculus with 6 samples.

Results

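Tubulin isotypes are the closely related alpha, beta and gamma tubulins that separate genes encode, and they were followed here in mouse liver on Affymetrix arrays. A list of 10 tubulin genes was matched to the probe sets (the groups of oligonucleotides that read 1 transcript) annotated to exactly 1 gene. That gave 12 probe sets for 8 genes among the 22626 probe sets tested, which represent 12393 genes. The 8 genes were Tuba1a, Tuba4a, Tubb2a, Tubb2b, Tubb3, Tubb5, Tubb6 and Tubg1, and the other 2 listed genes, Tuba1b and Tuba1c, are not described because no single-gene probe set carried them. The list was drawn up with the transgenic and wild-type values known, so the differences of its members are given as a description and without a p-value.

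Liver RNA of 3 transgenic mice was measured, in which a conditional Tcfeb allele (now Tfeb, the lysosomal and autophagy transcription factor TFEB) was combined with Alb-Cre, Cre recombinase driven by the albumin promoter of hepatocytes. The comparison livers came from 3 wild-type mice. All 6 livers were taken at postnatal day 9, and the labels call the 3 arrays of each group biological replicates, each from the liver of 1 mouse. The labels do not give the sex or strain, or say whether wild-type animals carried Cre or the uninduced allele.

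Microtubules are hollow polymers of alpha and beta tubulin dimers, nucleated at centrosomes from rings that contain gamma tubulin. In hepatocytes they carry secretory vesicles and lysosomes, in bile duct cells they also form the core of the primary cilium, and in dividing cells they form the spindle. Isotypes differ mainly in their acidic C-terminal tails, which bind motors and modifying enzymes, and cells adjust tubulin mRNA stability to the amount of free dimer. Several isotypes, among them Tubb2b, Tubb3 and Tuba1a, are best known from developing neurons.

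Values are log2 expression on the scale the authors deposited. Correlations between arrays, taken over probe sets and so not over independent replicates, were 0.994 to 0.997 within groups and 0.977 to 0.979 between groups. The Tfeb probe set read 6.52, 6.61 and 6.36 on the transgenic arrays and 6.91, 6.63 and 6.58 on the wild-type arrays. It was thus not higher in the livers labelled transgenic (difference -0.21, limma adjusted p = 0.178), and since the labels do not say what part of the gene the transgene carries, it does not check the labels. Transgenic replicate 1 had a male pattern (Xist 5.58, against 13.03 to 13.19 on the other 5 arrays). Bacterial RNAs added as hybridisation controls read lower on all transgenic arrays, for 14 of 14 probe sets, with a median difference of -0.37. Scaling to them moves the median difference of all probe sets from -0.04 to 0.33, so that directions below hold relative to the scale as deposited. The hepatocyte marker Alb was at the top of the range in both groups (14.87 on average in transgenic and 14.87 in wild-type liver). Tdo2 read 8.11 on average in transgenic liver (percentile 67.5) and 11.69 in wild-type liver, the largest fall among 10 hepatocyte markers (-3.58). Of these 10 markers 8 fell and 0 rose, while 19.5% of all genes fell and 19.1% rose. Leaving out any 1 array gave 7 fallen and 0 risen markers. The mean log2 level of the 10 markers was 12.26 to 12.40 in transgenic and 13.21 to 13.24 in wild-type arrays. With arrays scaled to the bacterial controls, 4 fell and 2 rose. In whole liver RNA, a change in the number of cells of a type and a change in RNA per cell cannot be told apart.

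Across the list, 6 probe sets read higher in transgenic liver, 3 read lower and 3 did not pass an adjusted p of 0.05 (limma, Benjamini-Hochberg over all 22626 probe sets). Over all probe sets tested 35.4% passed, 18.1% higher and 17.3% lower. The same 6 and 3 probe sets had no overlap between groups, against 24.6% and 25.9% of all probe sets, or 50.5% in either direction. The members were chosen from this contrast, so nothing is read from these counts. The median difference of the 12 was 0.32, against -0.04 over all probe sets. Among beta tubulins 5 of 7 probe sets were called higher and 0 lower, with a median of 0.49. The alpha tubulins were split by gene, with the Tuba1a probe set higher and all 3 Tuba4a probe sets lower.

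**Figure D1:**
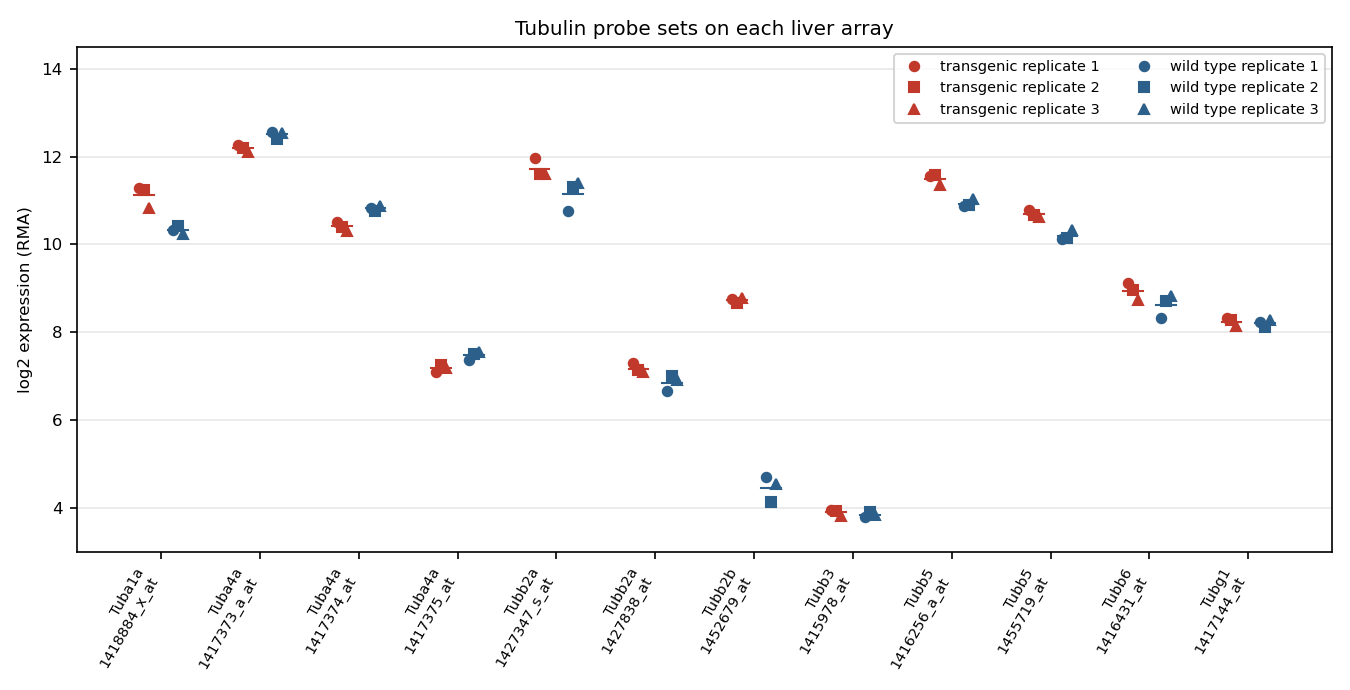
Log2 expression (vertical axis) of the 12 tubulin probe sets (horizontal axis) on each of the 3 transgenic (red, left) and 3 wild-type (blue, right) arrays, with short lines at the group means. Tubb2b stands apart with 8.66 to 8.79 in transgenic against 4.14 to 4.69 in wild-type arrays, while the other probe sets differ by less than 1.

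Tubb2b, a beta tubulin best known from migrating neurons, had by far the widest gap of the list. It read 8.76, 8.66 and 8.79 on the transgenic arrays, against 4.69, 4.14 and 4.53 on the wild-type arrays. Every transgenic array was thus well above every wild-type array. The means were 8.73 ± 0.07 in transgenic and 4.45 ± 0.28 in wild-type liver (SD, n = 3 each), a difference of 4.28 (SE 0.13) or 19.4-fold. Its difference had rank 13 of 22626, counted from the most positive. The transgenic mean lay at percentile 75.8 of all probe sets and the wild-type mean at percentile 19.5. The file holds no detection calls, so whether the wild-type reading is above background is unknown, and the fold may understate the change. Leaving out any 1 array gave differences of 4.12 to 4.40, and 4.27 without the array with the male pattern.

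Most measured markers of bile duct cells also read higher in transgenic liver. Of 6 measured of 9 listed, 4 rose and 0 fell, while 19.1% of all genes rose and 19.5% fell. Without wild-type replicate 3, 4 rose and 1 fell, and without wild-type replicate 1, 5 rose and 0 fell. The mean log2 level of the 6 markers per array was 7.75 to 8.0 in transgenic and 5.85 to 7.15 in wild-type liver. Cldn7 rose by 3.56, Sox9 by 2.22, Epcam by 1.94 and Krt7 by 1.15 (limma adjusted p = 0.00576 for Krt7 and lower for the others), whereas Krt19 (-0.27) and Cftr (0.38) did not pass. On the wild-type arrays Epcam read 8.51, 7.23 and 6.88, highest in replicate 1 as was Tubb2b, while the order of the other arrays differed between these genes. In transgenic replicate 3, where Tubb2b was highest, Epcam (9.30), Cldn7 (10.20) and Krt7 (6.92) were at their lowest of the transgenic arrays. Sox9 (8.18) was at its highest there. The part of cell composition in the tubulin values was not tested.

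Tubb2a, the close relative whose gene lies next to Tubb2b on chromosome 13, differed far less. Its brighter probe set, 1427347_s_at, read 11.98, 11.60 and 11.60 in transgenic liver and 10.76, 11.30 and 11.41 in wild-type liver. The groups did not overlap, but wild-type replicate 1 lay apart from the other wild-type arrays. The difference was 0.57 (SE 0.18), and 0.37 without wild-type replicate 1, which is more than 1.5 times smaller. The second probe set, 1427838_at, read 7.29, 7.13 and 7.10 against 6.65, 7.0 and 6.91, a difference of 0.32 (SE 0.11). Both calls were marginal. Leaving out any 1 array except wild-type replicate 3 ended the call of the first, and any except wild-type replicate 2 that of the second. The suffix of the first marks possible binding to other transcripts, so a share of signal from a relative such as Tubb2b cannot be told apart from Tubb2a.

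Tubb5, the broadly expressed beta tubulin of dividing cells, was higher on both of its probe sets. Probe set 1416256_a_at read 11.57, 11.58 and 11.35 in transgenic liver, against 10.87, 10.89 and 11.04 in wild-type liver. The lowest transgenic array lay above the highest wild-type array. The difference was 0.57 (SE 0.09), a 1.48-fold change. Probe set 1455719_at read 10.78, 10.68 and 10.63 against 10.13, 10.15 and 10.33, a difference of 0.49 (SE 0.08). The call of each held on leaving out any 1 array, with differences of 0.53 to 0.64 and 0.45 to 0.55.

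Tubb6, a beta tubulin found in many tissues and prominent in muscle, read 9.11, 8.97 and 8.73 in transgenic liver and 8.32, 8.72 and 8.83 in wild-type liver. The groups overlapped, since transgenic replicate 3 lay below wild-type replicate 3. The difference of 0.31 (SE 0.15) did not pass the threshold, and it was 0.16 without wild-type replicate 1. Tubb3, the beta tubulin used as a marker of neurons, was dim in both groups. It read 3.95, 3.92 and 3.82 on transgenic arrays and 3.79, 3.90 and 3.84 on wild-type arrays, and the groups overlapped. Its difference was 0.06 (SE 0.07), and its means lay at percentiles 13.7 in transgenic and 11.4 in wild-type liver, where a probe set may read background only. Neural markers rose for 0 of 8 genes and fell for 1, while 19.1% of all genes rose and 19.5% fell. The means of these markers were 3.77 to 3.84 in transgenic and 3.91 to 3.99 in wild-type liver. All of them but Syp lay at percentiles 0.7 to 18.0 in transgenic liver, and may read background only. None fell without any 1 transgenic array or wild-type replicate 3, 2 fell without wild-type replicate 1, and with bacterial scaling 1 rose and 0 fell.

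Among alpha tubulins, Tuba1a, the main alpha isotype of postmitotic neurons, read 11.28, 11.23 and 10.84 in transgenic liver. Wild-type liver read 10.33, 10.41 and 10.23, below every transgenic array. The difference was 0.79 (SE 0.12), or 1.73-fold, the second widest of the list. The suffix of its only probe set, 1418884_x_at, marks possible binding to other transcripts, and alpha tubulin coding sequences are nearly identical, so signal from Tuba1b or Tuba1c cannot be told apart. Without transgenic replicate 1 the difference was 0.71.

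Tuba4a ran the other way. It is the alpha tubulin whose gene lacks the encoded C-terminal tyrosine of the others, and it is abundant in platelets and muscle. Its brightest probe set, 1417373_a_at, read 12.27, 12.19 and 12.11 in transgenic liver and 12.57, 12.41 and 12.55 in wild-type liver. Probe set 1417374_at read 10.52, 10.40 and 10.31 against 10.83, 10.77 and 10.88. The third, 1417375_at, read 7.09, 7.25 and 7.19 against 7.36, 7.51 and 7.55. On all 3, each transgenic array lay below each wild-type array. The differences were -0.32, -0.42 and -0.30 (SE 0.08 each), that is 0.799-fold, 0.749-fold and 0.814-fold. With arrays scaled to the bacterial controls they were 0.05, -0.04 and 0.07, so that the sign of 2 of the 3 depends on the scale. Megakaryocyte markers, of the lineage that makes platelets, rose for 1 of 4 genes and fell for 0, while 19.1% of all genes rose and 19.5% fell. Without wild-type replicate 3, 2 of these markers were higher. With bacterial scaling, under which most probe sets rose, 4 were higher. The part of platelets in the Tuba4a values was not tested. The call of 1417374_at held on leaving out any 1 array, whereas that of 1417373_a_at was lost without transgenic replicate 2 or 3 or wild-type replicate 3. The call of 1417375_at was lost without transgenic replicate 1 or 3 or wild-type replicate 2 or 3.

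Tubg1, the gamma tubulin that nucleates microtubules at centrosomes, read 8.33, 8.27 and 8.14 in transgenic liver and 8.24, 8.11 and 8.28 in wild-type liver. The groups overlapped and the difference was 0.03 (SE 0.08), with no settled sign, since it was -0.04 after cyclic loess.

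**Figure D2:**
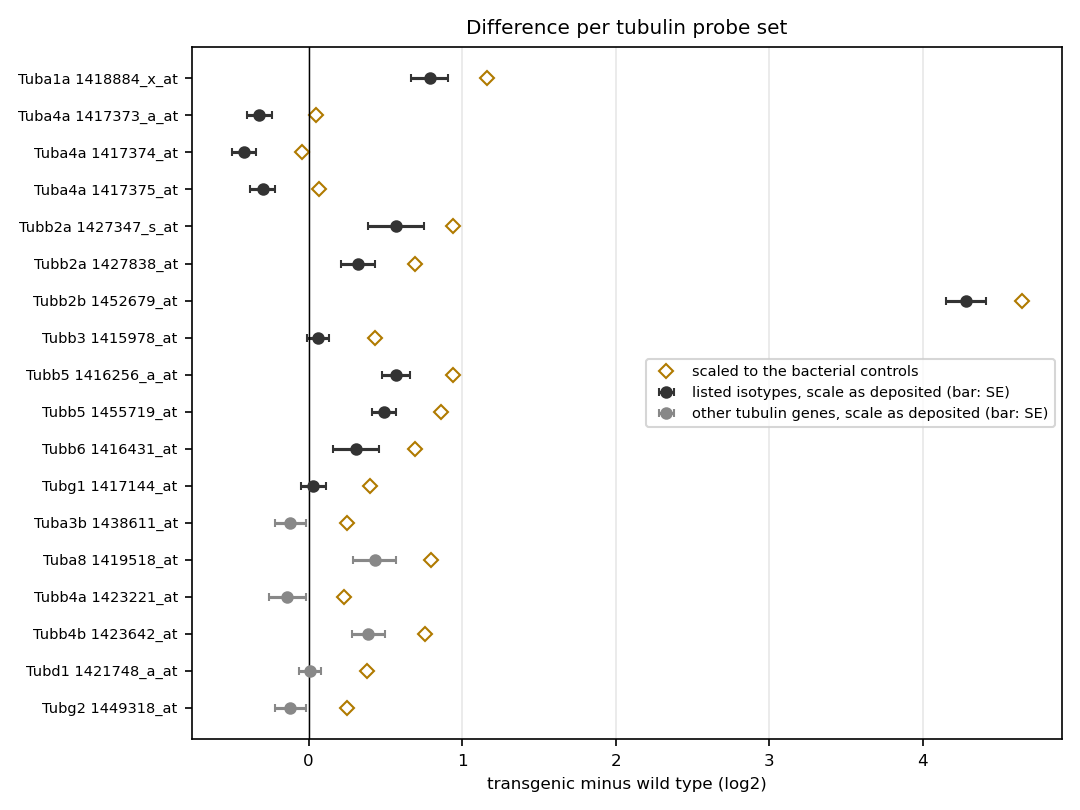
Transgenic minus wild type on the log2 scale (horizontal axis) for the 12 probe sets of the listed isotypes (dark) and the 6 other tubulin genes (grey), with bars for the SE, and the same differences after scaling to the bacterial controls (open diamonds). Scaling moves every point to the right by the same amount, which brings the 3 Tuba4a probe sets to 0.05, -0.04 and 0.07 and Tubb2b above its 4.28.

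The spread within groups was shared by most of the list. Transgenic replicate 1 was the highest of the 3 transgenic arrays for 9 of 12 probe sets, and transgenic replicate 3 the lowest for 9 of 12. Over all probe sets these arrays were highest or lowest in 34.6% and 36.9%. In wild-type liver replicate 1 was lowest for 7 of 12 and replicate 3 highest for 7 of 12, against 36.7% and 31.5% over all probe sets. Tubb2b did not follow this order, being highest in transgenic replicate 3 and lowest in wild-type replicate 2. The 12 probe sets are not independent, since several read 1 gene and related transcripts. Transgenic replicate 1 is also the array with the male pattern, and the part of sex in this spread was not tested.

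**Figure D3:**
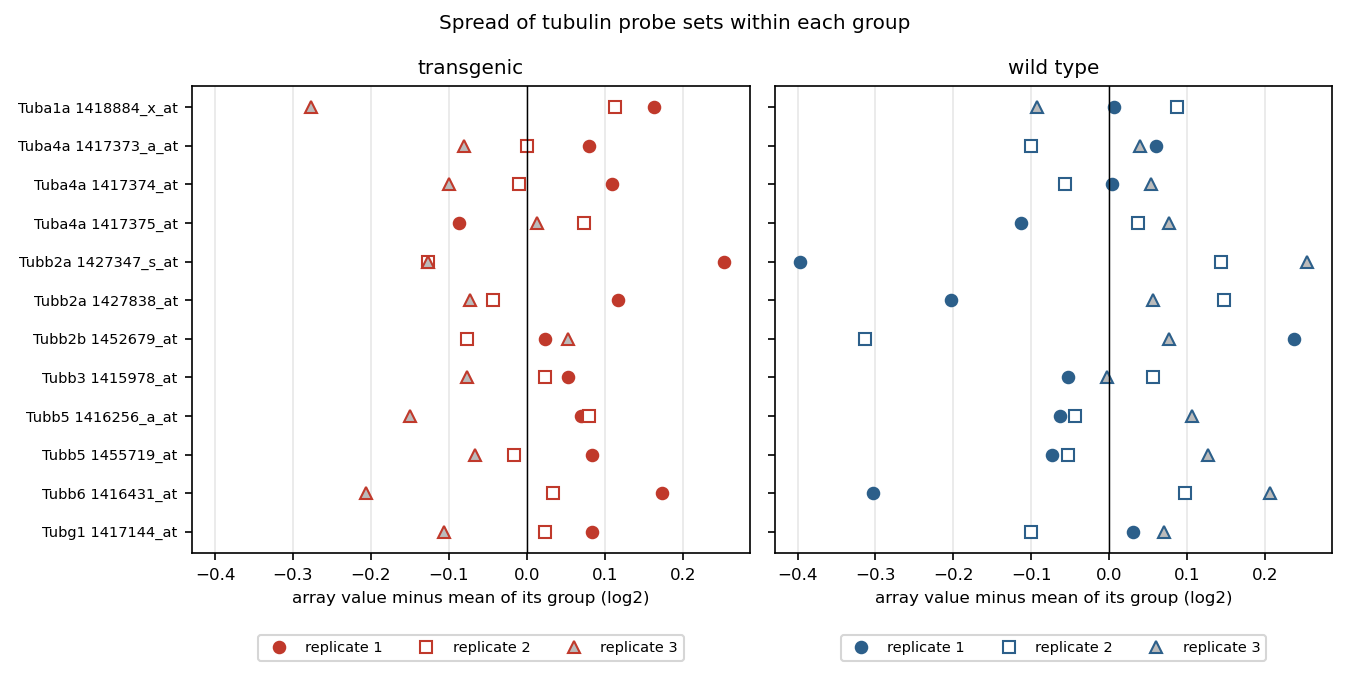
Deviation of each array from the mean of its own group (horizontal axis, log2) for the 12 tubulin probe sets (vertical axis), transgenic arrays in the left panel and wild-type arrays in the right. Transgenic replicate 1 lies highest for 9 probe sets, and wild-type replicate 1 lies lowest for 7.

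Promoter sequences were compared because TFEB binds E-box elements with the core CACGTG. RefSeq promoter windows (GRCm38.p6, 250 bases before to 50 after the transcription start) were at hand for 5 of the 8 measured genes, Tuba1a, Tuba4a, Tubb2a, Tubb3 and Tubb5. The core CACGTG, which reads the same on both strands, was in 1 of the 5, Tubb5, against 7.15% of all 32851 windows. Searching both strands, TATAAA was in 1 of 5, Tubb2a (13.62% of all windows), CCAAT in 3 (37.41%) and GGGCGG in all 5 (35.66%). A match describes letters in a window and shows no binding. The 250 bases before the start are printed for Tubb5, the called isotype with the E-box core, for Tubb2a, called higher without it, and for Tuba4a, the isotype that read lower. Capitals mark CACGTG in Tubb5 (from 75 bases before the start), TATAAA in Tubb2a (29 bases) and both copies of GGGCGG or its complement in Tuba4a (35 and 23 bases).
Tubb5 (chr17:35838302-35838551, minus strand): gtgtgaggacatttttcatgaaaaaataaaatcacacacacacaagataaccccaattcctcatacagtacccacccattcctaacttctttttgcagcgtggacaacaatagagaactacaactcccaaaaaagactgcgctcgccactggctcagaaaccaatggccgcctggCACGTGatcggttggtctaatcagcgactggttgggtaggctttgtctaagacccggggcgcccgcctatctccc
Tubb2a (chr13:34078009-34078258, minus strand): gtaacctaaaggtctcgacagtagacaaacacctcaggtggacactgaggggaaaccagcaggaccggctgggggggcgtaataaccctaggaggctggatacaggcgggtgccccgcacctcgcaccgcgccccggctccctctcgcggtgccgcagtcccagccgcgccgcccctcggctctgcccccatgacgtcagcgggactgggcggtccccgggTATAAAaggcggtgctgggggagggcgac
Tuba4a (chr1:75219295-75219544, minus strand): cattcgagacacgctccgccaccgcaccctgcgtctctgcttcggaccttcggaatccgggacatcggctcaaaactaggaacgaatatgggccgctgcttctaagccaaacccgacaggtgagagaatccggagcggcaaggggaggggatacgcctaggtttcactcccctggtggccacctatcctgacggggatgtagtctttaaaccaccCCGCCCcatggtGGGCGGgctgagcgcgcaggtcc

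In gene order on the same assembly, Tubb2a and Tubb2b are immediate neighbours on chromosome 13. The 3 measured genes that flank the pair were all called, in both directions, while 38.6% of all genes were called. Around all listed genes, 22 neighbours (the nearest 2 protein-coding genes on each side, tubulins left out) were measured, 5 higher and 6 lower. Psmg4, a proteasome assembly chaperone on the Tubb2b side, rose by 0.36 (SE 0.08, limma adjusted p = 0.0117), and Slc22a23, an orphan transporter after it, fell by 0.30 (adjusted p = 0.0168). Bphl, a serine hydrolase on the Tubb2a side, fell by 0.44 (adjusted p = 0.00205). These flanking genes were looked up after the values of the members were known.

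Of the 10 tubulin genes outside the list, 6 were measured. They are the tubulins left after the list was chosen with these values known, so their p-values are not independent of that choice. By the brightest probe set, 2 rose, 0 fell and 4 did not pass, while 38.6% of all genes passed, 19.1% higher and 19.5% lower. Tubb4b, a broadly expressed and ciliary beta tubulin, read 10.58, 10.38 and 10.47 in transgenic liver and 9.87, 10.17 and 10.22 in wild-type liver. The groups did not overlap, and the rise was 0.39 (SE 0.11, limma adjusted p = 0.0248). The other 5 Tubb4b probe sets, all dimmer, were not called, nor were the 3 probe sets of the pseudogene Tubb2a-ps2 (-0.24 to 0.22). Tuba8, an alpha tubulin of muscle and testis, read 7.53, 7.26 and 7.37 against 6.68, 6.97 and 7.22, a rise of 0.43 (SE 0.14, limma adjusted p = 0.0434). Again wild-type replicate 1 was the lowest array for both genes.

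These 2 calls depended on single arrays. Tubb4b was not called without transgenic replicate 1 (difference 0.34, adjusted p = 0.0775) or 3 (0.40, adjusted p = 0.0664), and with wild-type replicate 1 left out it was 0.28 (adjusted p = 0.0416). Tuba8 stayed called only without wild-type replicate 3 (0.56, adjusted p = 0.0146), and its adjusted p was 0.0609 to 0.124 without each of the other arrays. The 4 genes that did not pass were Tubb4a, a neuronal beta tubulin (-0.14, SE 0.12), Tuba3b of testis (-0.12, SE 0.10), the second gamma tubulin gene Tubg2 (-0.12, SE 0.10) and the centriolar delta tubulin gene Tubd1 (0.01, SE 0.07).

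Genes that make, organise and use microtubules were described by lists, counting each gene by its brightest probe set, where 19.1% of all genes rose and 19.5% fell. The values over all genes were not matched to the lists for brightness. Without the 40% dimmest probe sets, 59.2% of the calls over all probe sets were higher, against 51% with them. Genes for tubulin folding rose for 11 of 21 measured members, 0 fell and 10 did not pass, with a median difference of 0.24 against -0.04 over all 12393 genes. Tbcb, a cofactor that handles alpha tubulin, read 10.09, 10.10 and 9.94 in transgenic liver against 9.26, 9.30 and 9.33 in wild-type liver, a rise of 0.75 (limma adjusted p = 0.000207). Subunits of the chaperonin CCT, the ring in which new actin and tubulin fold, rose alongside, with Tcp1 at 0.65, Cct3 at 0.65 (5 of its 6 probe sets) and Cct2 at 0.62. Each library left out in turn gave 10 risen and 0 fallen members.

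Of the transport motors, the kinesins and dynein that carry cargo along microtubules, 14 of 29 rose, 3 fell and 12 missed the threshold, with a median of 0.21. Klc3, a kinesin light chain, rose by 0.93 (limma adjusted p = 0.000204) and Kif16b, a kinesin of early endosomes, by 0.89 (adjusted p = 9.03e-05). Dync1i1, a dynein intermediate chain best known from neurons, fell by 0.39 and the kinesin gene Kif13a fell by 0.37. Dync1i1 was dim, at percentiles 5.5 in transgenic and 9.3 in wild-type liver, where a probe set may read background only. Without the 40% dimmest probe sets 0 transport motors were called lower. Dync1i1 was not called without transgenic replicate 1 (-0.35) or 3 (-0.38). Without transgenic replicate 1 the counts were 11 higher and 1 lower.

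Ciliary transport genes rose for 6 of 12 members, 1 fell and 5 did not pass, with a median of 0.23. Ift122 rose by 0.77 (limma adjusted p = 0.004), Ift57 by 0.47 and Ift74 by 0.45, all subunits of the trains that move along the ciliary microtubules, while Ift27 fell by 0.31 on 1 of its 3 probe sets. The Ift27 call was lost without transgenic replicate 2 (-0.33) or 3 (-0.24) and without wild-type replicate 1 (-0.27) or 2 (-0.32).

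Among mitotic spindle genes, 5 of 14 rose, 0 fell and 9 missed the threshold (median 0.28). Cenpe, a kinetochore kinesin, rose by 0.61 (limma adjusted p = 0.00238), Prc1, which bundles midzone microtubules, by 0.46, Kif18a by 0.42 and Tpx2 by 0.40 (1 of 2 probe sets). Cenpe was dim, at percentiles 27.3 in transgenic and 18.0 in wild-type liver. Without the 40% dimmest probe sets 3 spindle genes were called higher. Tpx2 was not called without transgenic replicate 1 (0.39) or 2 (0.36), nor without wild-type replicate 1 (0.33) or 2 (0.37). Kif2c, at 0.39 (2 of 4 probe sets), completed the 5 and was named after its value was seen. Markers of proliferating cells rose for 1 of 9 genes and 0 fell, with means of 9.61 to 9.75 in transgenic and 9.32 to 9.62 in wild-type liver. Without wild-type replicate 3 they rose for 5, and without any other array for 0. With bacterial scaling all 9 rose, but on that scale 12963 of all 22626 probe sets rose too.

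For microtubule binding proteins, 6 of 23 genes rose, 3 fell and 14 missed the threshold (median 0.09), a share called near the 38.6% of all genes. With bacterial scaling, under which most probe sets rose, 18 rose and 0 fell. Without the 40% dimmest probe sets 6 rose and 0 fell, and after cyclic loess 1 rose and 1 fell. Clasp1, which stabilises growing plus ends, rose by 0.86 (limma adjusted p = 6.76e-05, 1 of 2 probe sets) and Map7d1 by 0.32, whereas Clip2, a dim plus-end protein gene, fell by 0.42 and Mapt, the gene of tau, fell by 0.41 on 1 of its 3 probe sets. The count of those higher was 2 without any 1 transgenic array and 1 without wild-type replicate 2, and that of those lower was 1 without transgenic replicate 2. Single calls were lost for Map7d1 without any 1 array except wild-type replicate 3 and for Clip2 without transgenic replicate 2 (-0.35).

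Genes of modifying and severing enzymes rose in 2 of 13 cases and fell in 3, and the other 8 missed the threshold (median -0.02), a share called near the 38.6% of all genes. With bacterial scaling, under which most probe sets rose, 8 rose and 0 fell. Ttll1, a polyglutamylase of tubulin tails, rose by 0.55 (limma adjusted p = 0.0102) and Agtpbp1, a carboxypeptidase that shortens those side chains, by 0.43. Ttll1 was dim, at percentiles 33.4 in transgenic and 25.4 in wild-type liver. Without the 40% dimmest probe sets 1 of these enzymes was called higher. Fign, a microtubule severing ATPase, fell by 0.64 and Agbl3 fell by 0.31. Ttll1, Agtpbp1 and Agbl3 were each called on 1 of 2 probe sets. Agbl3 lost its call without transgenic replicate 1 (-0.26) or 3 (-0.27) and without wild-type replicate 2 (-0.32) or 3 (-0.28). Only 1 of these enzymes was called lower without transgenic replicate 1, transgenic replicate 3, wild-type replicate 2 or wild-type replicate 3.

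Of the nucleation genes, which seat gamma tubulin in its ring, 1 of 8 rose, 2 fell and 5 did not pass (median 0.06). Tubgcp4, a ring subunit, rose by 0.45 (limma adjusted p = 0.0027, 1 of 2 probe sets), while the small ring protein gene Mzt2 fell by 0.69 and the ring recruiter Nedd1 fell by 0.35 (1 of 2 probe sets). With bacterial scaling, under which most probe sets rose, 5 rose and 1 fell. Of the genes for tubulin mRNA autoregulation 1 of 3 was measured. Ttc5, whose product recognises nascent tubulin chains and marks their mRNAs for decay, read 8.11 ± 0.05 in transgenic and 8.13 ± 0.12 in wild-type liver (SD, n = 3 each), a difference of -0.02.

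**Figure D4:**
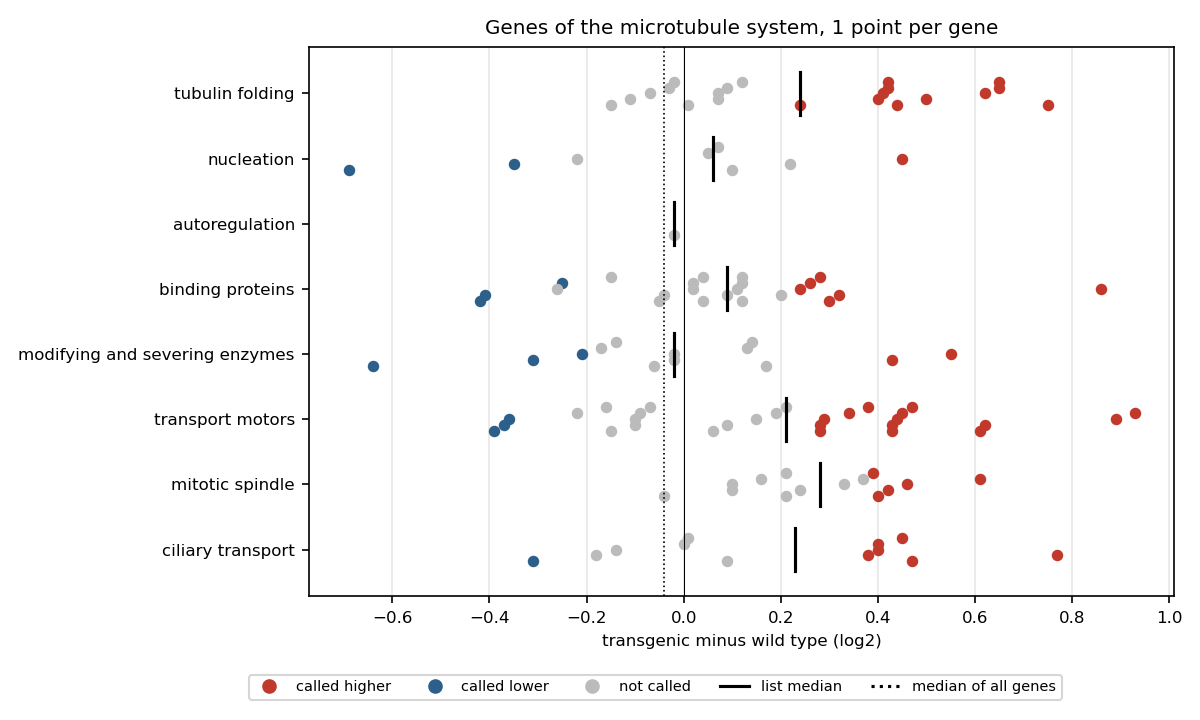
Transgenic minus wild type on the log2 scale (horizontal axis) for the genes of 8 lists (vertical axis), 1 point per gene, red for genes called higher, blue for genes called lower and grey for the rest, with a solid line at each list's median and a dotted line at the median of all genes. Tubulin folding, transport motors, mitotic spindle and ciliary transport have medians of 0.21 to 0.28, against -0.04 for all genes. The median of all genes is not matched to the lists for brightness.

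The profile most like that of Tubb2b was sought among 12385 other genes by the root mean square difference of centred log2 values over the 6 arrays, a measure dominated by the size of the gap between groups. The nearest was Entpd2, an ectonucleotidase, at 0.27, with 11.33 ± 0.28 in transgenic and 6.81 ± 0.03 in wild-type liver (SD, n = 3 each). Cox7a1, a cytochrome c oxidase subunit of heart and muscle, followed at 0.29, the tight junction gene Cldn4 at 0.29, Wnt4 at 0.33 and the thioesterase gene Acot1 at 0.37. The 5 rose by 4.52, 4.18, 4.61, 4.44 and 3.66 in that order.

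Other liver cell types were followed by marker genes as well, and most of these counts depended on the scale or on single arrays. Over all genes 19.1% rose and 19.5% fell on the scale as deposited. With bacterial scaling 12963 of 22626 probe sets rose and 945 fell. Erythroid markers rose for 3 of 5 measured genes and fell for 0, with 4 higher after bacterial scaling. Leaving out any 1 array except wild-type replicate 1 gave 2 erythroid markers higher. Granulocyte markers fell for 5 of 6 and rose for 0, on both scales and without any 1 array on the scale as deposited. Lymphoid markers fell for 3 of 3, and for 1 with bacterial scaling. Macrophage markers fell for 2 of 4, but for 0 without transgenic replicate 2, wild-type replicate 2 or wild-type replicate 3 and for 1 without transgenic replicate 1, and with bacterial scaling 1 rose and 0 fell. Stellate cell markers rose for 1 of 9 and fell for 3, against 5 higher and 2 lower with bacterial scaling. Endothelial markers rose for 1 of 5 and fell for 3, against 2 higher and 0 lower with bacterial scaling, and 0 rose without transgenic replicate 1 or 2 or wild-type replicate 1 or 3. Mesothelial markers fell for 1 of 3, but for 0 with bacterial scaling, for 0 without transgenic replicate 2 or 3 or wild-type replicate 1 or 2, and for 3 without wild-type replicate 3. Their part in the tubulin values was not tested.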

How the data were processed

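Liver RNA of 3 transgenic and 3 wild-type mice was measured on Affymetrix arrays, 1 per animal. The deposited values are log2 expression per probe set, which the authors made with affy and RMA, per the submitters' processing notes. The version of each was not given in the sources used here. Of 22690 probe sets 64 array controls were left out and 0 values were missing. RMA makes array distributions alike, so a change in total RNA cannot be seen, and the number of arrays limits the precision. Genes were named from the platform annotation (20380 probe sets with 1 gene, 691 with several, 1555 with none), and symbols were checked by Entrez identifier against RefSeq GRCm38.p6, where 20351 matched. Each list gene was read from its brightest single-gene probe set, by the mean over all 6 arrays.

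Groups and replicate numbers came from the sample titles. R 4.3.3 with limma 3.58.1 (lmFit and eBayes, group as the only term) gave differences and p-values, adjusted over 22626 probe sets by Benjamini-Hochberg and called at 0.05. The members and lists were chosen with earlier results of these data known. All probe sets of the members and all other measured tubulin genes are named. From each list up to 4 called genes with the largest change are named, up to 2 in each direction first, or without a call the largest changes as values, together with the 5 genes most like Tubb2b. Bphl, Psmg4, Slc22a23, Kif2c and the cell type markers named fall outside that rule. In simulated data for this comparison with 200 of 22626 probe sets changed, changes of 0.5, 1 and 2 were recovered for 40.4%, 82.9% and 98.5%, with 7 false calls. In the measured data 35.4% of probe sets were called, a far larger share than was changed in the simulation. The adjustment depends on that share, so these rates do not carry over to the calls made here. Alternatives are given in the closing section. Python 3.11.15, pandas 2.3.3 and matplotlib 3.10.9 served for tables and plots.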

Additional observations from a re-analysis of the deposited data

Results flagged for a closer look

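Probe sets annotated to several genes, at least 1 of them a tubulin gene, were used in no comparison above. Of these 7, 2 were called higher in transgenic liver, against 18.1% of all probe sets, and 0 lower. The 2 also had no overlap between groups, as 24.6% of all probe sets had in that direction. Probe set 1416128_at had no overlap either, but its difference of 0.27 was not called. Probe set 1449682_s_at read 6.80, 6.18 and 6.04 on transgenic arrays and 3.91, 4.15 and 4.54 on wild-type arrays, a difference of 2.14 (SE 0.22, limma adjusted p = 0.000265). Probe set 1448232_x_at read 8.27, 8.13 and 8.20 against 7.74, 7.92 and 8.02, a difference of 0.31 (SE 0.09, limma adjusted p = 0.0305). Both signals cannot be assigned to 1 gene. Groups of 3 arrays are too small for a check of single outlying arrays.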

How the results depend on the processing

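Over all probe sets 4087 were higher and 3919 lower (51.0% of calls higher). Scaling to the bacterial controls gave 12963 and 945 (93.2% higher), using no probe sets with suffix _a, _s or _x gave 2423 higher, and 1 probe set a gene gave 2467 and 2523, the last 2 with fewer probe sets tested. Of the 12 tubulin probe sets, 6 higher and 3 lower, 2 were higher without those suffixes, 0 lower with bacterial scaling and 1 lower with 1 probe set a gene. The 2 other tubulin genes called higher became 1 with quantile normalization again or median centring, 0 with cyclic loess and 4 with bacterial scaling. Over the 8 microtubule lists, 45 higher and 12 lower became 97 and 1 with bacterial scaling and 27 and 6 without the suffixes (fewer genes tested), and 5 were lower without the 40% dimmest probe sets. Leaving out 1 array gave 3017 to 3874 probe sets higher and 2808 to 3722 lower, 4 to 5 tubulin probe sets higher and 1 to 3 lower, 0 to 2 other tubulin genes higher and 0 lower, and 34 to 42 list genes higher and 7 to 10 lower. Where a value was called on at least 1 of the scales, its sign turned with bacterial scaling for Tuba4a (0.05 and 0.07), Tuba3b (0.25), Nedd1 (0.03), Ttc5 (0.35), Agbl3 (0.06), Kif13a (0.01) and Ift27 (0.06). Values called under neither setting also turned, among them Tubb4a (0.23) and Tubg2 (0.25) with that scaling and Tubg1, 0.03 as deposited, with quantile normalization again (-0.04), median centring (-0.01), cyclic loess (-0.04) and without transgenic replicate 1 (-0.01) or wild-type replicate 2 (-0.02). Causes were not tested. Median centring gave 42.1% of calls higher and the 40% filter 59.2%.

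Same-numbered arrays of both groups did not deviate together (correlations -0.0954, -0.0215 and 0.0507), so the numbers do not pair them. With a replicate block 3466 probe sets were higher and 3291 lower, 4 and 3 tubulin probe sets, 39 and 9 list genes, and 0 other tubulin genes were higher (Tubb4b adjusted p = 0.0544, Tuba8 adjusted p = 0.0706, by limma). Trend and robust options and array weights kept each of these counts within 1.5 times.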
